A study of Mus musculus with 6 samples.

Results

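The complement genes described here are C1qa, C1qb and C1qc, which encode the chains of C1q, together with C3, C3ar1, C5ar1, Cfp, Cfb and C4b. They were taken as probe sets annotated with 1 of these 9 symbols and no other, and Runx3-/- was compared with WT on all 6 arrays. Of the 9 genes, 8 had a probe set of their own among 19938 such genes, and 6 of the 8 reached the background of log2 6.5 in at least 1 array and were tested, among 9922 tested genes. C5ar1 and C4b lay below background on all 6 arrays, and C3 has no probe set listed under its symbol alone and is not analysed here. The C1q genes share chromosome 4 with Runx3, whereas C3, Cfb and C4b lie on chromosome 17, C3ar1 on 6, C5ar1 on 7 and Cfp on X.

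The study asked which genes of splenic CD4+ dendritic cells (DC) respond to the transcription factor Runx3. RNA came from 6 male mice aged 6 weeks, 3 of them WT (Runx3 +/+) and 3 Runx3-/-, as 3 litters that each gave a WT and a Runx3-/- animal. Replicate numbers 1 to 3 name the litter. DC enriched on magnetic beads were sorted on CD11c, MHCII, CD4 and CD8, and whether Esam was part of the gate is not settled by the labels. The deletion was germline, so Runx3 was lost in all cells of these mice and not in the DC alone.

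Complement is a cascade of plasma proteins that tags microbes and dying cells for uptake and can lyse a target. C1q starts the classical pathway when it binds antibody or altered cell surfaces, factor B and properdin act in the alternative pathway, and the small fragments of C3 and C5 signal through receptors on myeloid cells. Most components in plasma are made by the liver, but C1q is made mainly by macrophages and some DC, and each C1q molecule needs all of its chain types.

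RNA of all C1q chains was more abundant in Runx3-/- than in WT CD4+ DC, by 2.48-fold to 2.66-fold, and 3 of the 6 tested complement genes rose and 0 fell at an adjusted p of at most 0.05 (limma). Over all tested genes 1.36% were higher and 0.907% lower by the same rule. None of the tested members outside C1q passed. Cfb was 2.32-fold higher without passing, Cfp was level, and C3ar1 was above background in 1 Runx3-/- array alone. These values come from bulk samples, so more cells of a type that contains a transcript cannot be told apart from more of that transcript per cell.

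Runx3 itself, which checks the labels (probe set 10509030, Entrez gene 12399), read 11.24, 11.22 and 11.11 in WT 1 to 3 and 9.16, 9.30 and 9.16 in Runx3-/- 1 to 3 on the log2 scale. All Runx3-/- arrays lay below all WT arrays, and the log2 change was -1.98 (SE 0.08, limma adjusted p = 0.0027). With the litter as a block the adjusted p was 0.061, without WT 1 it was 0.054, and over 17 alternatives it ran from 0.00069 to 0.061. The exact two-sided permutation p was 0.1, below which 3 arrays against 3 cannot go. In all, 298 of 19149 probe sets passed, and leaving out WT 1 or Runx3-/- 3 left 0 and 1 of them, so no call here survives without WT 1.

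Promoters of the C1q genes are shown because the chains rose together and the deleted factor binds DNA. RefSeq promoter windows (GRCm38.p6) were at hand for 6 of the 9 genes, C1qb, C1qc, C3, C3ar1, C5ar1 and Cfp. The sequences run 5′ to 3′ on the strand of the gene and end at the base before its start. They cover chr4:136886201-136886450 (minus strand) for C1qb, chr4:136892915-136893164 (minus strand) for C1qc and chrX:20931556-20931805 (minus strand) for Cfp, which is shown as a gene whose level did not pass the test. Capitals mark matches, on either strand, to the RUNX motif (TGTGGT or TGCGGT), the PU.1 motif (GAGGAA), the MAF motif (TGCTGA) or the interferon response element.
C1qb: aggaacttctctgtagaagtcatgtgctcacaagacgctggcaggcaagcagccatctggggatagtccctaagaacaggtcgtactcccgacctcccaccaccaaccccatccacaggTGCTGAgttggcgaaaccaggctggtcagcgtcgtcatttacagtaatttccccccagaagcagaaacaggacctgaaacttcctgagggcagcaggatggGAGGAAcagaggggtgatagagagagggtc
C1qc: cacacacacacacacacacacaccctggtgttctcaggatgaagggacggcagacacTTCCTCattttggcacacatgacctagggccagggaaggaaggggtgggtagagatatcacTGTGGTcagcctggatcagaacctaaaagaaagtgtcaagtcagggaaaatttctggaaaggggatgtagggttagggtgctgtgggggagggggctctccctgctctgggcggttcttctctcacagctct
Cfp: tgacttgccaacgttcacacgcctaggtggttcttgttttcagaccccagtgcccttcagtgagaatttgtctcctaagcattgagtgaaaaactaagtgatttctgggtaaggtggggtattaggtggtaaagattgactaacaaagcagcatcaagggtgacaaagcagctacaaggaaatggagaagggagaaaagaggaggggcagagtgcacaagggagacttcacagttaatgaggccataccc

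The window of C1qc held TGTGGT 127 to 132 bases before the start, and a PU.1 motif on the other strand 188 to 193 bases before it. The window of C1qb held no RUNX motif, a PU.1 motif 25 to 30 bases and a MAF motif 126 to 131 bases before the start. None of the motifs was found in the Cfp window. Of the other members, C5ar1 held TGTGGT and a MAF motif, and C3 and C3ar1 held a MAF motif each. Either RUNX motif was present in 18.6% of 32851 promoter windows of the same length, the PU.1 motif in 23.3%, the MAF motif in 16.1% and the interferon element in 2.98%. A match describes letters in the window and not a bound site.

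C1qa (probe set 10517517, Entrez gene 12259), the A chain, read 8.43, 8.46 and 8.25 in WT 1 to 3 and 9.95, 9.64 and 9.57 in Runx3-/- 1 to 3. Every Runx3-/- array lay above every WT array. The log2 change was 1.34 with a 95% interval of 1.05 to 1.64 (SE 0.12, limma adjusted p = 0.014), from 8.38 ± 0.11 (SD, n = 3) to 9.72 ± 0.20 (SD, n = 3).

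C1qb (10517508, 12260), the B chain, read 10.04, 10.28 and 9.84 in WT and 11.65, 11.19 and 11.25 in Runx3-/- 1 to 3. The groups did not overlap, and Runx3-/- 1 was the highest array. The log2 change was 1.31, with an interval of 0.90 to 1.71 (SE 0.17, limma adjusted p = 0.028), between means of 10.06 ± 0.22 and 11.36 ± 0.25 (SD, n = 3 each).

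C1qc (10517513, 12262), the C chain, read 8.83, 8.85 and 8.26 in WT and 10.42, 9.90 and 9.85 in Runx3-/- 1 to 3. WT 3 was the low array of its group and Runx3-/- 1 the high array of the other, again without overlap. Its log2 change was 1.41, with an interval of 0.87 to 1.95 (SE 0.22, limma adjusted p = 0.044), between means of 8.64 ± 0.34 and 10.06 ± 0.32 (SD, n = 3 each). The exact permutation p was 0.1 for each chain.

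The direction of the C1q rise held under all 17 alternatives, with a median log2 change of the chains between 1.22 and 1.42, but the calls did not all hold. With the litter as a block the adjusted p was 0.074 for C1qa, 0.090 for C1qb and 0.081 for C1qc (limma). C1qa lost its call without WT 1 (0.079) or Runx3-/- 3 (0.056), within a range of 0.0079 to 0.11. C1qb lost it without WT 1 (0.15), WT 3 (0.089), Runx3-/- 1 (0.084) or Runx3-/- 3 (0.084), within 0.014 to 0.15. C1qc lost it without any 1 of the 6 arrays (0.076 to 0.16), within 0.025 to 0.17.

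The chains moved by like amounts within each array. The gap between the log2 values of C1qa and C1qb shifted by 0.04 from WT to Runx3-/-, where its SD over 3 arrays was 0.13 in WT and 0.08 in Runx3-/-. For C1qa and C1qc the gap shifted by -0.07 (SD 0.22 and 0.12), and for C1qb and C1qc by -0.10 (SD 0.19 and 0.08). Each shift was thus no larger than the wider of the spreads between arrays. Only 67 of 9922 tested genes, or 0.675%, had a log2 change as large as that of C1qb, the smallest of the chains, and the middle 90% of genes lay between -0.36 and 0.45.

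**Figure D1:**
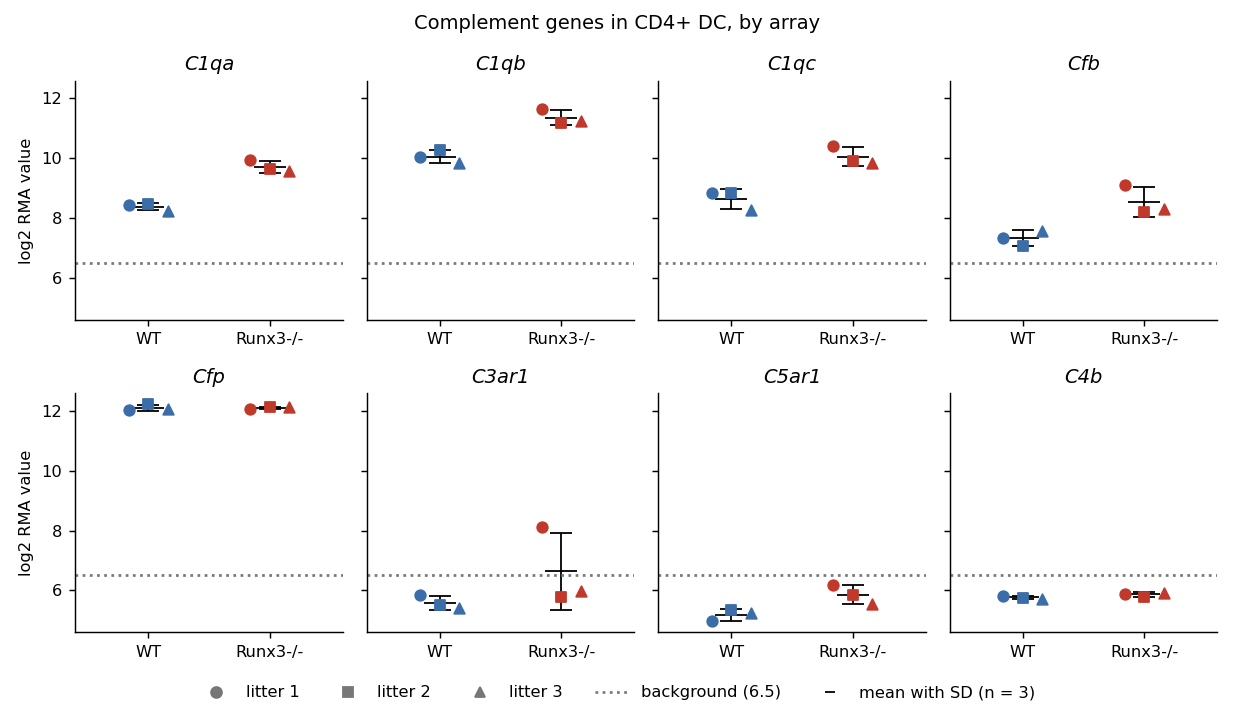
Log2 value of each complement gene with a probe set, by array, with WT in blue, Runx3-/- in red, the litter as the symbol, the mean and SD (n = 3) in black and dots marking the 6.5 background. The C1q chains and Cfb, and C5ar1 below background, lie higher in all Runx3-/- arrays, Cfp stays near 12.11, and C3ar1 stands out in Runx3-/- 1 alone at 8.13.

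Among the members on other chromosomes, Cfb (10450325, 14962) encodes factor B, which supplies the protease of the alternative pathway convertase. It read 7.34, 7.07 and 7.59 in WT and 9.12, 8.22 and 8.30 in Runx3-/- 1 to 3. All Runx3-/- arrays were above all WT arrays, and Runx3-/- 1 was the highest. The log2 change was 1.21 with an interval of 0.56 to 1.86 (SE 0.27, limma adjusted p = 0.10). The adjusted p ran from 0.047 with array weights to 0.30 without WT 1, and was 0.14 with the litter as a block. The exact permutation p was 0.1.

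Cfp (10603860, 18636) encodes properdin, which stabilises that convertase, and read 12.03, 12.22 and 12.07 in WT and 12.05, 12.12 and 12.12 in Runx3-/- 1 to 3. The groups overlapped fully, with a log2 change of -0.01 and an interval of -0.20 to 0.18 (limma adjusted p = 0.96). A change of the size seen for C1q lies outside that interval. The sign of so small a value turned under median centring, to 0.03.

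C3ar1 (10547657, 12267), the receptor of the C3a fragment, read 5.84, 5.51 and 5.40 in WT and 8.13, 5.78 and 5.99 in Runx3-/- 1 to 3. It was above background in Runx3-/- 1 alone, and the groups overlapped. The log2 change was 1.05 with an interval of -0.43 to 2.54 (limma adjusted p = 0.47, exact permutation p = 0.2). Since all arrays but Runx3-/- 1 lay below background, no least fold can be given. Without Runx3-/- 1 the log2 change was 0.30 (adjusted p = 0.55), and no alternative gave an adjusted p under 0.29 or over 0.68.

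C5ar1 (10560242, 12273), the receptor of C5a, read 4.97, 5.35 and 5.25 in WT and 6.17, 5.86 and 5.54 in Runx3-/- 1 to 3, all below background. The groups did not overlap, the difference of the means was 0.66, and with no filter on low values the adjusted p was 0.20 (limma). C4b (10450242, 12268), which encodes a form of C4, the classical pathway substrate of the C1 proteases, read 5.81, 5.76 and 5.73 in WT and 5.88, 5.79 and 5.93 in Runx3-/- 1 to 3. Its difference was 0.10, with an adjusted p of 0.62 when no filter was set (limma).

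The cut-offs that the methods name are p of at most 0.05 without adjustment and a change of at least 1.5-fold. With the limma p in place of the analysis of variance p, 4 of the 6 tested members were higher, the C1q chains and Cfb. Over all tested genes 3.05% were higher by that rule. By the analysis of variance itself, p for these 4 members was 0.00057 to 0.021. The same 4 had all Runx3-/- arrays above all WT arrays, as did 9.86% of tested genes.

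Set beside each other, the C1q chains had log2 changes of 1.31 to 1.41, while of the members on other chromosomes Cfb and Cfp, the only ones above background in both groups, had 1.21 and -0.01. The mean of the C1q chains exceeded that of Cfb and Cfp by 0.76. With C3ar1 counted in, whose WT values all lay below background and which was tested only through Runx3-/- 1, the difference was 0.60. The sets had been chosen with results known, so these differences are given with no test. Each of C1qa, C1qb and C1qc changed by at least 0.90 in every litter, with means over the chains of 1.58, 1.04 and 1.44 in litters 1 to 3. Cfb changed by 1.79, 1.15 and 0.70, and Cfp by 0.02, -0.10 and 0.05. Cfb was thus higher in the Runx3-/- mouse of every litter, as the C1q chains were, whereas the sign of the Cfp difference varied between litters.

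**Figure D2:**
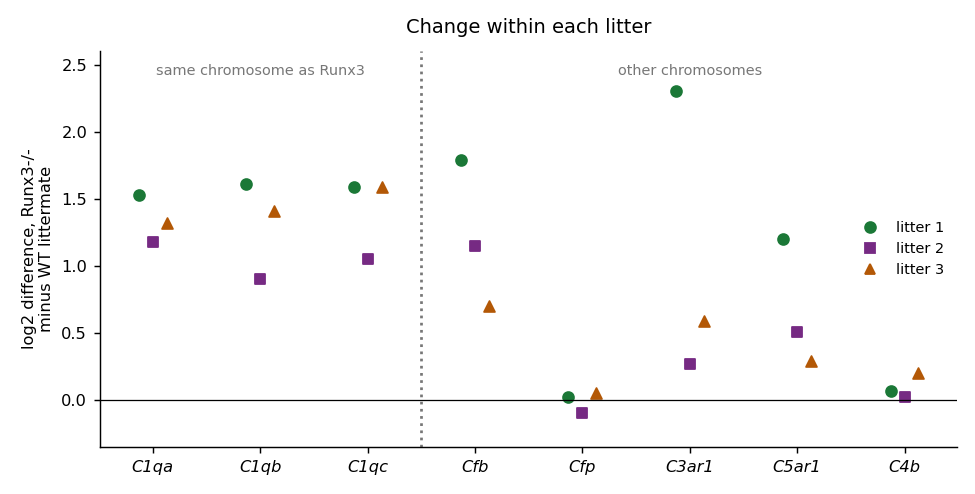
Difference in log2 value between the Runx3-/- and the WT mouse of each of 3 litters, for each complement gene with a probe set, with 1 symbol and colour per litter. The C1q chains lie between 0.90 and 1.61 in all litters, Cfb between 0.70 and 1.79, and C3ar1 reaches 2.30 in litter 1 only.

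Most members read highest in Runx3-/- 1. That array was the brightest of the 6 arrays for 6 of the 8 members with a probe set, or 75.0%, as it was for 15.5% of all tested genes, fewer than the 1716 of 9922 for which Runx3-/- 3 was, and for 44.5% of the 978 genes with all Runx3-/- arrays above all WT arrays. Without that array the log2 change was 1.23 for C1qa, 1.16 for C1qb, 1.23 for C1qc and 0.92 for Cfb. These differences were thus smaller and of the same direction without it.

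The C1q genes lie next to each other in the order C1qb, C1qc, C1qa, with 0 genes between them, and 50 annotated genes separate Runx3 from C1qb in the RefSeq gene order. Of these 50 genes 29 had a probe set and 15 were tested, so C1qb was the 16th tested gene from Runx3. Among the 15, 0 were higher and 1 was lower, where 2.27% of all tested genes passed in either direction, and their median log2 change was -0.06. The lower gene was Rcan3, a regulator of calcineurin, with 7.63, 7.38 and 7.77 in WT and 6.61, 6.58 and 6.43 in Runx3-/- 1 to 3. Its log2 change was -1.05 (SE 0.12, limma adjusted p = 0.021), and 0.090 with the litter as a block. Its adjusted p ran from 0.010 to 0.12 over 17 alternatives and was past the threshold without WT 2 or Runx3-/- 2, but not without any other single array.

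The other genes of that stretch with the smallest p were Nipal3 (-0.55, limma adjusted p = 0.075), Lypla2 (-0.27, 0.29), Luzp1 (0.17, 0.34) and Pithd1 (-0.24, 0.44). Luzp1 had the highest value of the 15, against 1.31 for C1qb. The first 10 tested genes beyond C1qa had log2 changes of -0.52 to 0.14, and 0 of them passed. Across both stretches 0 of 25 tested genes rose, where 1.36% of all tested genes did, so that few or none would be met by that share.

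In a wider window, the 50 tested genes on each side of Runx3 held 4 that passed, the C1q genes and Rcan3. Without the C1q genes 1 of 97, or 1.03%, passed. With 100 genes on each side and without C1q, 5 of 197 passed, or 2.54%, of which Sdc3, Marcksl1 and Tmem51os1 were higher and Rcan3 and Gpr157 lower. Over the whole chromosome without Runx3, 14 of 608 tested genes passed, or 2.30%. In a Runx3-/- mouse the loss of Runx3 and the inheritance of the chromosome stretch that carries the targeted allele cannot be told apart for a gene linked to it.

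**Figure D3:**
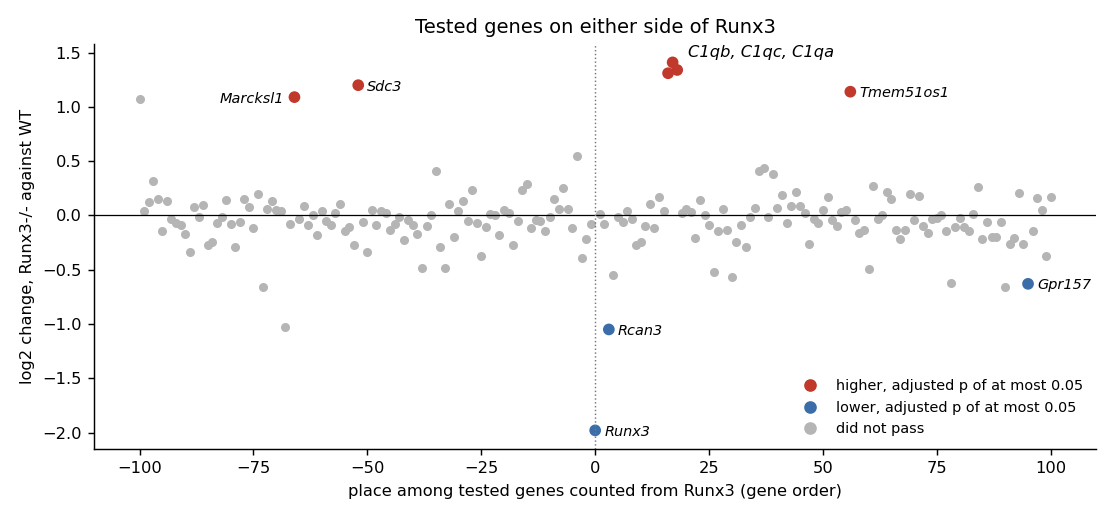
Log2 change of the 100 tested genes on each side of Runx3, by their place in gene order counted from Runx3, with genes that passed an adjusted p of 0.05 in red (higher) or blue (lower). The C1q genes stand together at 1.31 to 1.41, while the 15 tested genes between them and Runx3 lie between -1.05 and 0.17.

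Of 54 complement genes listed by role, members included, 50 had a probe set, 15 were tested and 35 lay below background on all arrays. The C1q chains were the 3 that rose, and 0 fell, where 1.36% of all tested genes were higher and 0.907% lower. The 15 tested genes had a median log2 change of 0.47, and the 9 of them that are not members had -0.11, against -0.03 over all tested genes. C3ar1 (1.05) and Cd59a (0.73) were tested only through 1 Runx3-/- array each, which favours higher values in that group. The 0.47 is therefore no measure of a shift of the complement genes. In the classical pathway the proteases C1ra, C1rl, C1s1 and C1s2, and C2, C4a and C4b lay below background, so C1q was the part of the C1 complex that these arrays measured. All 7 listed genes of the terminal pathway, which builds the lytic pore, were below background too.

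In the lectin pathway, which starts from sugar patterns, 1 of 8 genes was tested. This was Fcna, encoding ficolin A, at 6.67, 6.90 and 6.43 in WT and 7.12, 7.89 and 7.46 in Runx3-/- 1 to 3. Its groups did not overlap and its log2 change was 0.82 (SE 0.22, limma adjusted p = 0.15), with 2 of 3 WT arrays above background. Among the regulators, which protect host cells, 3 of 16 were tested and 0 passed. Cd46 changed by -0.11 (adjusted p = 0.66) and Cr1l by -0.16 (0.36), and Cd59a, above background in Runx3-/- 3 alone, by 0.73 (0.37).

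Of 8 complement receptors 6 were tested and 0 passed. Cr2, which binds fragments of C3 and is known from B cells and follicular dendritic cells, read 9.08, 9.15 and 9.30 in WT and 8.08, 8.78 and 8.38 in Runx3-/- 1 to 3. It was lower in all Runx3-/- arrays, with a log2 change of -0.77 (SE 0.18, limma adjusted p = 0.11). Of the integrin chains of complement receptors 3 and 4, Itgam had a log2 change of 0.47 with an interval of 0.14 to 0.79 (limma adjusted p = 0.17). It was higher in all Runx3-/- arrays than in any WT array, and by 0.51, 0.34 and 0.56 within litters 1 to 3. The other chains had -0.18 for Itgb2 (0.28) and -0.11 for Itgax (0.47). C5ar2, a further C5a receptor, had -0.69 (0.52), and -0.65, -0.99 and -0.43 within litters 1 to 3. With the litter as a block its adjusted p was 0.13 (limma).

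Of 5 proteins known to bind C1q, all were tested, and 2 rose, where 1.36% of all tested genes were higher. Cd93, a membrane glycoprotein of myeloid and endothelial cells first described as a C1q receptor, read 6.07, 6.55 and 6.49 in WT and 7.80, 8.18 and 8.36 in Runx3-/- 1 to 3. Its groups stood far apart, with a log2 change of 1.74 (SE 0.19, limma adjusted p = 0.020) and 1 WT array above background. Lrp1, an endocytic receptor that takes part in the uptake of C1q-coated cells, read 9.17, 9.17 and 8.73 in WT and 10.41, 10.62 and 10.26 in Runx3-/- 1 to 3. Its log2 change was 1.41 (SE 0.15, limma adjusted p = 0.021). Calreticulin (Calr, 0.05), the inhibitory receptor Lair1 (0.04) and C1qbp (-0.02) had intervals that all included 0.

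With the litter as a block the adjusted p was 0.065 for Cd93 and 0.070 for Lrp1 (limma). Cd93 lost its call without WT 1, WT 3 or Runx3-/- 3, within a range of 0.012 to 0.13 over 17 alternatives. Lrp1 lost it without WT 1, Runx3-/- 1 or Runx3-/- 3, within 0.010 to 0.13. Of 22 other genes with a C1q domain, 19 lay below background and 2 were tested. Emilin2, a matrix glycoprotein, had a log2 change of 0.91 (SE 0.22, limma adjusted p = 0.12), and C1qtnf12 had -0.02 (0.98).

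**Figure D4:**
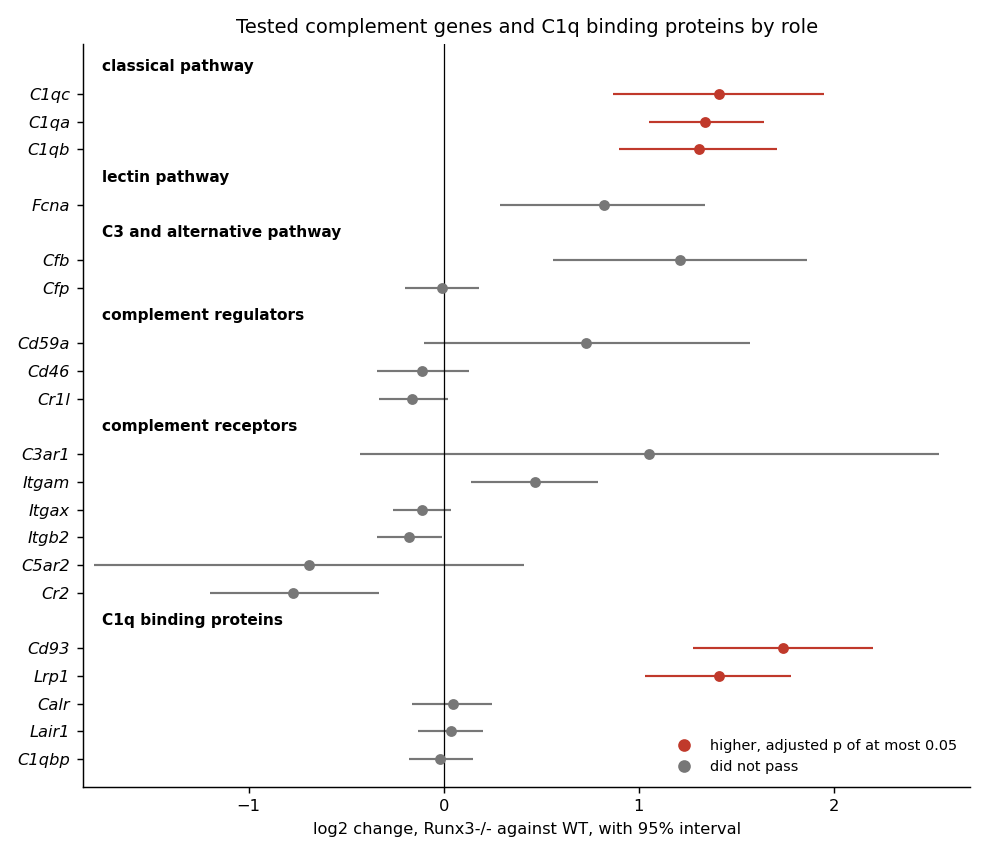
Log2 change of the tested complement genes and C1q binding proteins, Runx3-/- against WT, grouped by role, with 95% intervals as lines. Those past an adjusted p of 0.05 are C1qa, C1qb, C1qc, Cd93 and Lrp1, and the interval of C3ar1, -0.43 to 2.54, is the widest.

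The genes whose 6 values followed the mean of the C1q chains most closely were found by the root mean square difference of values centred on each gene's own mean over the 6 arrays. The difference was 0.05 to 0.09 log2 units for the C1q chains themselves. It was 0.11 for Plxna1, Cabp4 and Tmem26 and 0.13 for Itgb5 and Cd69, which were the next 5 of 9922 genes. Plxna1, a semaphorin receptor, read 6.95, 7.02 and 6.92 in WT and 8.49, 8.13 and 8.14 in Runx3-/- 1 to 3. As in the C1q genes, its highest value was in Runx3-/- 1. All 5 were higher in each Runx3-/- array than in any WT array, a pattern that the measure of likeness selects, so no test is drawn from it, and Tmem26 lay below background in all WT arrays.

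C1q is also a product of macrophages, and markers of other cells that the gate could hold are given beside it. Of 13 red pulp macrophage markers 12 were tested and 4 were higher, Spic, Pparg, Mertk and Axl, with a median log2 change of 1.23 over the list. Of all tested genes 1.36% were higher. Spic, a transcription factor of red pulp macrophages, had 1.40, close to the C1q chains, and Vcam1 1.39 without passing (limma adjusted p = 0.067). The study reports Spic, too, as raised in CD4+ DC without Runx3, among genes earlier tied to DC development. Log2 changes were positive for 11 of the 12. Adgre1, the gene of F4/80, had 0.01, Cd68 -0.06 and Hmox1 0.22, and Cd163 lay below background. The summed linear signal of that list was 13925 to 17592 in WT and 19468 to 22635 in Runx3-/- arrays. Of 10 monocyte markers 8 were tested and 2 were higher, Clec12a (1.43) and Cx3cr1 (1.37), against the same 1.36%. The study names both as genes of Esam-low DC and reports them raised in sorted Esam-high DC that lacked Runx3. Log2 changes were positive for 7 of the 8, Nr4a1 was level and Fn1 lay below background. The sums of the monocyte list were 19634 to 23124 in WT and 28708 to 29707 in Runx3-/- arrays. Neither list was tested for its part in the C1q values.

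Of 5 marginal zone macrophage markers 4 were tested and 2 rose, where 1.36% of all tested genes were higher. Timd4 rose by 0.67 and Cd5l, which lay below background in all WT arrays, by at least 1.32-fold. Cd209b of the same list read 10.02, 10.47 and 9.69 in WT and 9.36, 9.64 and 9.29 in Runx3-/- 1 to 3, a log2 change of -0.63 that did not pass (limma adjusted p = 0.23). Marco lay below background, and the sums were 1096 to 1724 in WT and 1074 to 1207 in Runx3-/- arrays. The tested markers of this list thus differed in both directions.

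The CD4+ DC markers were above background on all arrays for 11 of 11 genes, with sums of 57651 to 60673 in WT and 55165 to 58533 in Runx3-/- arrays. Irf4 was the 1 that fell (-0.62), where 0.907% of all tested genes were lower. Log2 changes were positive for 4 of the 11, with a median of -0.11. Without passing, Zbtb46 (-0.35), Flt3 (-0.28), Clec4a4 (-0.27) and Itgax (-0.11) were lower in all Runx3-/- arrays than in any WT array. Itgam (0.47) and Sirpa (0.16) were higher in all of them, also without passing. Of 10 CD8+ DC markers 9 were tested and 2 were higher, Irf8 (1.33) and Cadm1 (0.99), where 1.36% of all tested genes were higher. Log2 changes were positive for 7 of the 9, with a median of 0.56. Batf3 (-0.47, limma adjusted p = 0.20) and Wdfy4 (-0.49, 0.051) were lower in all Runx3-/- arrays than in any WT array. The sums of the list were 9616 to 10437 in WT and 9586 to 11463 in Runx3-/- arrays. Of 7 plasmacytoid DC markers 4 were tested and 0 passed, but all 4 had positive log2 changes and stood highest in Runx3-/- 3. Siglech read 7.45, 7.40 and 7.43 in WT and 7.46, 8.18 and 10.18 in Runx3-/- 1 to 3, and the sums of that list were 1187 to 1277 and 1340 to 3413. The C1q chains were highest in Runx3-/- 1, and the part of plasmacytoid DC in their values was not tested.

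B cell transcripts were present in both groups. Of 8 B cell markers 5 were tested and 0 passed, and 4 were above background on all arrays, among them Cd79b with 9.43, 9.55 and 9.81 in WT and 10.20, 10.09 and 10.22 in Runx3-/- 1 to 3. Cd79b, Ms4a1 and Fcer2a each had a log2 change of 0.58 (limma adjusted p = 0.077, 0.41 and 0.22). Cr2, also on this list, had -0.77 (0.11), and Cd79a, above background in WT 3 alone, had -0.01 (0.97). Pax5 and Ebf1 lay below background, and the sums of the list were 1737 to 2293 in WT and 2141 to 2353 in Runx3-/- arrays. Of the T cell markers Cd5 alone was above background, with -0.25 (adjusted p = 0.39), while Cd3e, Cd3d and Cd3g lay below it, as did all 5 NK cell markers. Of 8 neutrophil markers, Ngp alone reached background, at 7.13 in Runx3-/- 1, the array in which C3ar1 was high. The part of any of these cells in the C1q or C3ar1 values was not tested.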

How the data were processed

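Gene expression was measured on 6 Affymetrix arrays of sorted CD4+ DC. The authors imported the arrays into Partek, applied robust multichip averaging (RMA) with GC correction and deposited log2 values per probe set. The submitters' notes name the mm9 build without tool versions. RMA gives all arrays a like distribution, so a shift shared by most genes would be hidden. Array medians were 6.57 to 6.65.

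Of 35399 probe sets, 21789 had 1 gene symbol, 1621 several and 11989 none in the platform annotation. Gene order, chromosomes and promoters came from RefSeq tables of GRCm38.p6, and no coordinate of the mm9 build was converted. Log2 values were used as deposited. Probe sets at or above 6.5 in at least 1 array (19149) were compared with limma 3.58.1 in R 4.3.3 (lmFit, eBayes, two-sided, genotype alone), with Benjamini-Hochberg adjustment over all of them and a threshold of 0.05. The analysis of variance of the methods was an alternative, since its terms are unlisted. The brightest single-symbol probe set stood for a gene. The scripts were tested on simulated data.

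Litter numbers pair the mice per the labels, and deviations of littermates from their group means correlated at 0.16, 0.10 and 0.25. Single values received an exact permutation test. Arrays are single mice, so their number limits the precision. The 17 alternatives covered filters, scaling, the litter block, the methods' analysis of variance, an intensity trend, array weights, probe set choice and each array left out.

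The members and all lists were chosen with earlier results of these data known. Named genes were Runx3, the members, of each role list the genes called or else the 3 of smallest p, the called or else 5 of smallest p between Runx3 and C1q, the 5 nearest in pattern to C1q, and of marker lists those called and the first 3 measured, given here in part. Sdc3, Marcksl1, Tmem51os1, Gpr157, Hmox1, Cd68, Nr4a1, Batf3, Wdfy4, Ngp, Fcer2a and the markers below background were named after their values were seen. So were Zbtb46, Flt3, Clec4a4 and Sirpa. Of the erythroid or platelet markers 1 was tested and did not pass. Protein sequences were not used here.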

Additional observations from a re-analysis of the deposited data

How the results depend on the processing

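The rise of the C1q chains kept its direction under all 17 alternatives, as did the log2 change of Cfb and, in the 16 that tested it, that of C3ar1. The calls differed with the model and with the arrays that were used. With the litter as a replicate block 0 complement members, 0 C1q chains, 0 of all listed complement genes, 0 C1q binding proteins and 0 of the genes near Runx3 passed, and 0 of all probe sets did, where 3430 reached p of at most 0.05 before adjustment (limma). Runx3 had an adjusted p of 0.061 there, with a log2 change of -1.98. With the methods' analysis of variance these counts were 0 and 6 of all probe sets passed (2816 unadjusted). With array weights 656 probe sets passed, 2 genes between Runx3 and C1q, 9 of the 100 tested genes nearest to Runx3, and 4 members, as Cfb had 0.047. With no filter 2 of the C1q chains passed.

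Leaving out 1 array gave 0 to 2 members, C1q chains, listed complement genes and C1q binding proteins past the threshold, 0 to 1 genes between Runx3 and C1q, 0 to 3 of the 100 nearest genes, and 0 to 205 probe sets. Without WT 1, where 0 passed, 1972 probe sets reached that unadjusted level. The log2 change of Runx3 was -2.03 to -1.96 and its adjusted p 0.0074 to 0.054. The log2 change of Cfp, -0.01 as deposited, was 0.03 with median centring, 0.01 with array weights, 0.04 without WT 2 and 0.01 without Runx3-/- 1, and ran from -0.05 to 0.04 in all. The cause of these shifts was not tested. The median change of all tested probe sets was -0.04 as deposited, -0.01 after quantile normalization and 0.01 after median centring. Signals under 6.5 understate changes, which limits C3ar1, C5ar1, C4b, Cd93, Tmem26 and Cd5l.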
